A study of Mus musculus with 6 samples.

Results

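The genes described here are those of the cytochrome P450 superfamily, read in abdominal adipose tissue of C57BL/6 mice. They were chosen by name alone: every probe whose gene symbol in the scanner files was Cyp followed by a family number, a subfamily letter and a member number. This gave 75 genes with 101 probes, of 19194 genes with a symbol-named RefSeq probe on the array. Each gene was read from the probe with the highest mean signal among those that carry its symbol, called the catalogue probe below. Custom-designed probes of the same mRNAs, which carry no symbol, are brighter for some genes and were read separately. All mice were fed a high-fat diet that began at 6 weeks of age, and after 12 weeks of it they were assigned at random to an operation. The DJB group had a duodenal-jejunal bypass, an operation that reroutes food past the upper small intestine, here with a biliopancreatic limb of 5 cm and a Roux limb of 4 cm. The Sham group had the incision and the intestine cut and sewn back in place. The labels name buprenorphine under anaesthesia for the DJB operation and describe the mice as diabetic by then. There were 3 arrays in each group, and the labels do not state whether each came from its own mouse. The p-values therefore reflect only how far these samples spread, which may be technical. The labels give neither the fat depot nor the time after surgery, and the series' design text describes another experiment and was not used.

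P450 enzymes are haem proteins that insert an oxygen atom into small fat-soluble molecules, taking their electrons from a reductase (Por) in the endoplasmic reticulum or from ferredoxin in mitochondria. Families 1 to 3 act on drugs and other foreign compounds, and several of their members also turn arachidonic acid into epoxides. Family 4 hydroxylates the ends of fatty acids and eicosanoids. The higher families have set tasks in steroid hormone, bile acid, vitamin D and retinoic acid metabolism. In fat, Cyp1b1 and Cyp2e1 are among the better known members, and many of the others are best known from liver.

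All 8 adipocyte markers on the list used were well above background on all 6 arrays. Their summed intensity was 442250 to 513768 in Sham and 228964 to 410550 in DJB, and Retn alone was called lower (log2 difference -1.20, SE 0.19, adjusted p = 0.0348). Of the 8 differences 7 were negative, and the median was -1.15. At an unadjusted p under 0.05 (limma), 6 of the 8 were lower and 0 higher, where 35.5% of all genes passed in either direction. Of all genes tested 2.12% were called higher and 4.9% lower. Of 8 macrophage markers 3 were called higher, of 5 smooth muscle markers 3 lower and of 6 mesothelium markers 2 lower. Their summed intensities on Sham and DJB arrays were 102804 to 148385 and 182978 to 234929 for macrophage, 40792 to 58389 and 13010 to 18637 for smooth muscle, and 14175 to 14933 and 3136 to 8265 for mesothelium. The part of these shifts in the results on P450 genes was not tested, and in bulk tissue fewer cells of a type and less RNA per cell cannot be told apart. The arrays lay on 2 slides, the first with 2 arrays of each group and the second with 1 of each. Each array's 75th percentile of signal was 132 to 184 before scaling, and 62.6% to 68.8% of probes were well above background. Sham-3 correlated best with DJB-3 (r = 0.98 over tested probes), the other 5 arrays with an array of their own group, and values without Sham-3 are given below where a call changed. Having 3 arrays per group limited the precision, and an exact permutation test of 3 against 3 arrays cannot go below 0.10.

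Among the P450 genes that fit the naming pattern, those that passed the test were lower after DJB. Of the 75 genes, 55 had a catalogue probe well above background on 3 or more of the 6 arrays and were tested. Of these, 6 were called lower (limma, Benjamini-Hochberg adjusted p under 0.05) and 0 higher: Cyp1a1, Cyp2c29, Cyp2c44, Cyp2c70, Cyp2j9 and Cyp2u1. Cyp1a1 passed the background filter through its Sham arrays alone. Each of its calls given here, also under the alternatives below, uses DJB readings not well above background. Over all 16166 genes tested the same way, 4.9% were called lower and 2.12% higher, 7.02% in all. At an unadjusted p under 0.05, 12 P450 genes were lower and 6 higher, 32.7% of those tested against 35.5% of all genes. In 12 tested P450 genes every DJB array lay below every Sham array, against 19.7% of all genes, and in 8 every DJB array lay above, against 25.5%. The difference was negative in 34 of the 55, with a median of -0.16 on the log2 scale where the median of all genes was 0.05. The median over the tested P450 genes was 0.04 under another background correction (normexp), so no direction is drawn from it. When the slide was a block, 3 of the 6 calls were left (Cyp1a1, Cyp2c29 and Cyp2c44), where 0.959% of all genes were called lower. Without Sham-1 or without Sham-2 only Cyp1a1 was called, without DJB-2 only Cyp2c29, and without DJB-1 Cyp1a1, Cyp2c29 and Cyp2c44. Without Sham-3 the calls were these 3 and Cyp2d26, and without DJB-3 these 3, Cyp2j9 and Cyp27a1.

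**Figure D1:**
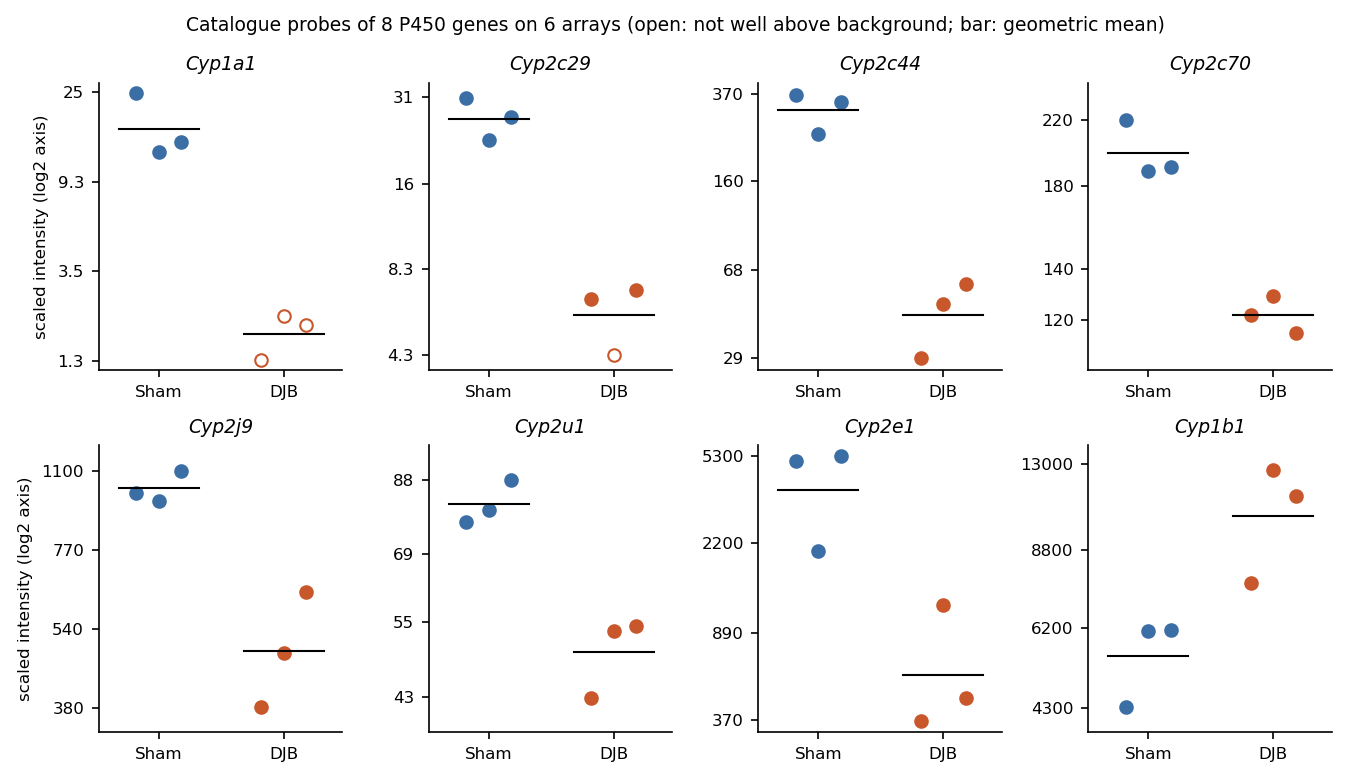
Scaled intensity (log2 axis, arbitrary units, each panel with its own scale) of the catalogue probes of 8 P450 genes on the 3 Sham and 3 DJB arrays. Points are arrays in the order 1 to 3, open points are not well above background, and bars are geometric means. In the first 7 panels all DJB arrays lie below all Sham arrays, and for Cyp1b1 they lie above.

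In family 1 the members went different ways. Cyp1a1, the enzyme induced through the aryl hydrocarbon receptor (AHR), read 24.8, 12.9 and 14.5 in Sham and 1.31, 2.12 and 1.93 in DJB, in intensity scaled so that every array had the same 75th percentile (164.28). The probe was well above background on all Sham arrays and on none of the DJB arrays, so the difference is a bound. By this probe Cyp1a1 was at least 2.76-fold lower after DJB. The adjusted p of the limma call (0.0135, 0.0381 with the slide as a block) belongs to a difference of -3.25, not to the bound. That difference uses DJB readings not well above background, and the probe passed the filter through its Sham arrays alone. The signal was weak even in Sham: under the normexp correction, which adds an offset, the difference was -0.15 and no longer called. A second, custom-designed probe of the same mRNA was well above background on all 6 arrays, reading 113, 58.5 and 90.5 on Sham and 45.9, 39.8 and 37.1 on DJB arrays. By that probe the groups again did not overlap, but the difference was smaller, -1.05 (SE 0.25, adjusted p = 0.0662), and not called, so the bound holds for the catalogue probe alone.

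Cyp1b1, which is also induced through AHR and is known for its action on oestrogens, read 4321, 6106 and 6132 on Sham and 7599, 12648 and 11240 on DJB arrays. All DJB arrays lay above all Sham arrays, by 0.91 (SE 0.24), a 1.88-fold difference that was not called (adjusted p = 0.0783). It was called under the normexp correction and with a trended, robust prior. The custom probe gave 0.75 (SE 0.23, adjusted p = 0.099). Cyp1a2 was well above background on 1 array and was not tested. The receptor Ahr (difference 0.14, SE 0.24), its partner Arnt (0.11, SE 0.16) and its repressor Ahrr (0.18, SE 0.24) were not called.

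The sequences before the start sites of Cyp1a1 and Cyp1b1 are shown because AHR and Arnt bind the core letters GCGTG in the control regions of their target genes. In the 250 bases before the start site, in RefSeq sequence of build GRCm38.p6, each gene held this core once, at base -54 on the gene's strand in Cyp1a1 and at base -76 on the other strand (as CACGC) in Cyp1b1. The capitals mark it.
Cyp1a1, chr9:57697363-57697612, plus strand: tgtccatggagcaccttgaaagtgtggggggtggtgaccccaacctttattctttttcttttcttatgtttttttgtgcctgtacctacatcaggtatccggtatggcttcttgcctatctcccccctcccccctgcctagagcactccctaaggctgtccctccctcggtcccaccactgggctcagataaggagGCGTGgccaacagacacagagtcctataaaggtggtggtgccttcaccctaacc
Cyp1b1, chr17:79715062-79715311, minus strand: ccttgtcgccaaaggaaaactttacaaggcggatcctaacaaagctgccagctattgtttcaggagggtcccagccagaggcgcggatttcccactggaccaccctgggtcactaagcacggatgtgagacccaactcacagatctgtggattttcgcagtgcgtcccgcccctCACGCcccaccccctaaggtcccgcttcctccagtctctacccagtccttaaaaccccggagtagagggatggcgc
The core stood on one strand or the other in 28.2% of 32851 such windows of all genes. It stood in 13 of the 66 windows of the 57 P450 genes matched in the RefSeq table, which belong to 12 genes. A match is a description of the letters and not a site of binding.

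In family 2, the largest with 39 genes, 5 of the 27 tested were called lower and 0 higher, beside 4.9% and 2.12% of all genes. Of its differences 23 were negative, and the median was -0.32. Among 11 genes of the Cyp2c subfamily, epoxygenases of arachidonic acid and enzymes of drug metabolism, 7 were tested and 3 called. Cyp2c44 (current symbol Cyp2c23), an epoxygenase of kidney, liver and blood vessels, read 369, 252 and 343 on Sham and 29, 49 and 59.3 on DJB arrays. The groups lay far apart: the log2 level fell by 2.85 (SE 0.30, adjusted p = 0.0178), from 0.95 ± 0.29 to -1.91 ± 0.54 relative to the array's 75th percentile (SD, n = 3). The difference was -3.24 within the first slide and -2.09 within the second.

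Cyp2c29 read 30.9, 22.3 and 26.6 on Sham and 6.61, 4.28 and 7.1 on DJB arrays, of which the second was not well above background. It fell by 2.17 (SE 0.23, adjusted p = 0.0183, 0.0476 with the slide as a block), and its signal was weak in both groups. Under normexp the difference was -0.25 and not called. Its probe, shown because the call rests on this 60-base stretch of coding sequence alone, lies on chromosome 19 and reads, 5′ to 3′ on the plus strand in mm9 coordinates:
Cyp2c29, chr19:39403642-39403701: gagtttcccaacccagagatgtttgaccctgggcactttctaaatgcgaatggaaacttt
For Cyp2c29 the custom probe was well above background on none of the arrays.

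Cyp2c70, an enzyme of muricholic acid synthesis in mouse liver, read 220, 189 and 191 on Sham and 122, 129 and 115 on DJB arrays. It fell by 0.71 (SE 0.12, adjusted p = 0.0368), the same within each slide, and the call was lost with the slide as a block (adjusted p = 0.0616). The custom probe read 142, 116 and 105 against 2.01, 14.2 and 14.6, a difference of -4.00 (SE 0.77, adjusted p = 0.0455). Both probes were called lower, with differences that were far apart in size. Cyp2c37 (0.17), Cyp2c55 (-0.32), Cyp2c65 and Cyp2c66 (0.16), the other Cyp2c genes tested, overlapped between the groups.

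Cyp2e1, which oxidises ethanol, acetone and fatty acids, narrowly missed the threshold. It read 5009, 2025 and 5268 on Sham and 365, 1175 and 459 on DJB arrays, so that every DJB array lay below every Sham array. The difference was -2.69 (SE 0.55), a 6.47-fold lower level, with an adjusted p of 0.0501. It passed under median scaling, quantile normalization, normexp, the authors' deposited value table, the trended prior, the mean of probes and the stricter background filter. It did not pass with the slide as a block (adjusted p = 0.0655), with no filter on dim probes (0.0972) or with any 1 array left out (0.0844 to 0.17). The custom probe read 22609, 9332 and 23688 on Sham and 1826, 5653 and 2021 on DJB arrays, with nearly the same difference (-2.63, SE 0.55, adjusted p = 0.0513). The catalogue probe lies in coding sequence on chromosome 7 (plus strand, mm9), shown as the stretch behind this borderline value:
Cyp2e1, chr7:147959585-147959644: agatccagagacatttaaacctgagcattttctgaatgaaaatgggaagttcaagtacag
The 250 bases before its start site (GRCm38.p6, RefSeq) hold 1 copy of TATAAA, in capitals. These letters stand on either strand (as TATAAA or TTTATA) in 12.4% of all such windows. They stand in 24 of the 66 windows of the 57 P450 genes matched, which belong to 23 genes.
Cyp2e1, chr7:140763569-140763818, plus strand: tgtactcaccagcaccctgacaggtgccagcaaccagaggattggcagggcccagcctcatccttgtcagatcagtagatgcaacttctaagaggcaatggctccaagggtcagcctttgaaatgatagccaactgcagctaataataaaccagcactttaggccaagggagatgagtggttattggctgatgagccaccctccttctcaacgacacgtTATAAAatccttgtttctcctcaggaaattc

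Of the Cyp2j epoxygenases 4 of 5 were tested, all with negative differences. Cyp2j9 read 995, 961 and 1100 on Sham and 381, 485 and 638 on DJB arrays and fell by 1.05 (SE 0.20, adjusted p = 0.0453, 0.0704 with the slide as a block). Its custom probe gave the same picture, -1.01 (SE 0.19, adjusted p = 0.0428). Cyp2j6 was not called by the catalogue probe (-0.18, SE 0.12, adjusted p = 0.352) and was called by the custom probe (-0.73, SE 0.12, adjusted p = 0.0377). Cyp2j13 (-0.28) and Cyp2j11 (-0.74) were not called.

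Cyp2u1, which hydroxylates long-chain fatty acids, read 76.5, 79.8 and 88.1 on Sham and 42.9, 53.4 and 54.4 on DJB arrays and fell by 0.70 (SE 0.14, adjusted p = 0.0471, 0.077 with the slide as a block). The custom probe of the same mRNA read 143, 127 and 159 on Sham and 150, 150 and 134 on DJB arrays, a difference of 0.02 (SE 0.13), so the call holds for one stretch of the mRNA and not for the other. The catalogue probe lies in coding sequence on the minus strand of chromosome 3 (mm9):
Cyp2u1, chr3:131000768-131000827: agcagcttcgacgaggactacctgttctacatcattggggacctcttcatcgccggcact

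The other tested members of family 2 were not called, and several were uneven within a group. Cyp2b9, a liver enzyme, read 53.5, 54.1 and 44.8 on Sham and 4.8, 19.4 and 24.4 on DJB arrays, without overlap (-1.94, SE 0.60, adjusted p = 0.103). The custom probes of Cyp2b9 (-1.83) and Cyp2b10 (-1.84) differed at 2 of the 59 bases they have in common, so the 2 genes are uncertain apart from each other, and the catalogue probe of Cyp2b10 was well above background on 2 arrays alone. Cyp2s1, a P450 of epithelia, read 1572, 1470 and 1637 on Sham and 1970, 337 and 629 on DJB arrays, DJB-1 lying above all Sham arrays and the other two below. Cyp2w1 was 0.45 higher (SE 0.25, adjusted p = 0.285). By their catalogue probes all 5 tested Cyp2d genes had negative differences, from -0.05 to -1.50, and none was called. A second probe with the gene's symbol was positive in Cyp2d10 (0.30) and Cyp2d22 (0.03) and negative in Cyp2d9 (-0.12). The custom probe of Cyp2d10 was well above background on no array and that of Cyp2d12 on 1.

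**Figure D2:**
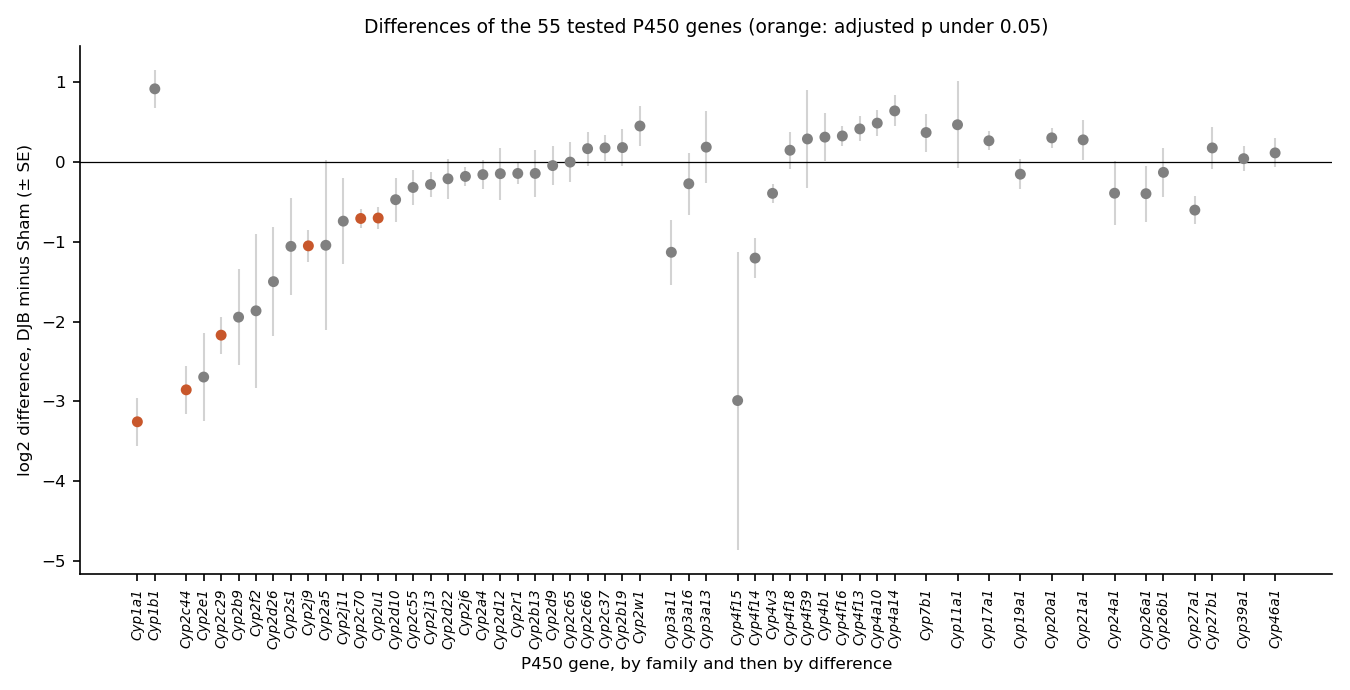
Log2 difference (DJB minus Sham) with its standard error for the 55 tested P450 genes, ordered by family number and then by difference, from catalogue probes. The 6 orange points are the calls, 1 in family 1 and 5 in family 2. Cyp4f15 has the widest error bar among the 55, and 7 of the 10 points of family 4 lie above 0.

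Family 4 had more positive than negative differences and no calls. Of its 12 genes 10 were tested, 7 with positive and 3 with negative differences, and the median was 0.30. At an unadjusted p under 0.05, 4 were higher (17.4% of all genes were) and 2 lower, 6 of 10 beside 35.5% of all genes. Under other settings some passed: Cyp4a14 (higher) and Cyp4v3 (lower) with normexp, Cyp4a10 (higher) and Cyp4f14 (lower) with the mean of probes, and Cyp4f14 and Cyp4v3 (lower) with the trended prior. Cyp4f14 also passed when a probe had to be well above background on all arrays of a group. Cyp4a10 and Cyp4a14, fatty acid omega-hydroxylases known as targets of the receptor Ppara, did not overlap between the groups. Cyp4a10 read 182, 198 and 151 on Sham and 285, 244 and 213 on DJB arrays (0.48, SE 0.16, adjusted p = 0.125), and Cyp4a14 read 21.6, 16.4 and 14.7 against 29, 30.1 and 22.5 (0.64, SE 0.19, adjusted p = 0.101). The custom probe of Cyp4a10 gave 0.82 (SE 0.22, adjusted p = 0.0799). It shares a run of 60 bases with the catalogue probe, so it does not read another stretch of the mRNA. Ppara itself read 427, 274 and 256 on Sham and 52.5, 120 and 114 on DJB arrays, a difference in the other direction that was not called (-1.79, SE 0.37, adjusted p = 0.0506).

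The Cyp4f genes, which inactivate leukotrienes and hydroxylate long-chain fatty acids, were mixed. Cyp4f13 (0.41, SE 0.16) and Cyp4f16 (0.32, SE 0.12) were higher on every DJB array than on any Sham array, both with adjusted p = 0.153. Cyp4f14, the main leukotriene B4 hydroxylase of mouse liver, read 13, 13.4 and 19.6 on Sham and 8.03, 7.11 and 4.86 on DJB arrays (-1.21, SE 0.25, adjusted p = 0.051). Its custom probe was well above background on all Sham arrays and on no DJB array, at least 2.24-fold lower. The adjusted p of that probe (0.0183) belongs to a difference of -2.55, not to the bound. That difference uses DJB readings not well above background, and the probe passed the filter through its Sham arrays alone. Cyp4f39, a hydroxylase of very long fatty acids in skin, read 215 on DJB-1 and 38.1 to 92.2 on the other arrays. Cyp4b1 read 6690 to 7008 in Sham and 5212 to 11913 in DJB (0.31, SE 0.30, adjusted p = 0.544), with the wider spread in DJB. Cyp4v3, a fatty acid hydroxylase, was lower without overlap (-0.40, SE 0.12, adjusted p = 0.0961).

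Of the 5 genes of family 3, known for drug and steroid metabolism, 3 were tested and 0 called. Cyp3a11 read 85.9, 33 and 29.3 on Sham and 20.5, 21.4 and 18 on DJB arrays, without overlap (-1.13, SE 0.41, adjusted p = 0.14), and no array had its custom probe well above background. Sham-1 stood above the other Sham arrays. Cyp3a13 (0.18, SE 0.45) and Cyp3a16 (-0.28, SE 0.39) overlapped between the groups.

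No P450 gene of sterol and bile acid metabolism was called by its catalogue probe, and 1 was by its custom probe. Cyp27a1, the mitochondrial sterol 27-hydroxylase, read 324, 287 and 340 on Sham and 191, 181 and 260 on DJB arrays (-0.60, SE 0.17, adjusted p = 0.0892). Its custom probe read 12594, 11260 and 13476 on Sham and 7098, 7457 and 6653 on DJB arrays and was called lower (-0.81, SE 0.12, adjusted p = 0.0305). The catalogue probe, in coding sequence on the plus strand of chromosome 1 (mm9), is shown because it and the custom probe differed in the call:
Cyp27a1, chr1:74782203-74782262: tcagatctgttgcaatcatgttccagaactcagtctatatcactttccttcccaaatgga
Cyp7b1, which hydroxylates oxysterols, was 0.37 higher (SE 0.24, adjusted p = 0.357), while its much dimmer custom probe gave 0.08 (SE 0.17). Cyp39a1 (0.04) and the cholesterol 24-hydroxylase Cyp46a1 (0.11) overlapped between the groups, while their custom probes were lower without overlap and not called (-0.49 and -0.38). Cyp7a1, the rate-limiting enzyme of bile acid synthesis in liver, was well above background on none of the arrays. Cyp8b1, the sterol 12-hydroxylase, was above background on 1 array by its catalogue probe and on all 6 by its custom probe (-1.13, SE 0.34, adjusted p = 0.0961).

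The P450 genes of steroid hormone synthesis were not called, and most overlapped between the groups. Cyp17a1, the 17-hydroxylase and lyase of androgen synthesis, read 1965, 2048 and 2186 on Sham and 2655, 2578 and 2222 on DJB arrays (0.26, SE 0.12, adjusted p = 0.211), without overlap, but no array had its custom probe well above background. Cyp11a1, which cleaves the side chain of cholesterol, ranged from 42 to 146 on Sham and from 70.1 to 177 on DJB arrays (0.46, SE 0.55). Its custom probe gave 0.45, with the same arrays high and low. The 21-hydroxylase Cyp21a1 (0.27) and the aromatase Cyp19a1 (-0.16) overlapped, and Cyp11b2 was well above background on none of the arrays.

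For vitamin D, the activating enzyme Cyp27b1 (0.17, SE 0.27) and the 25-hydroxylase Cyp2r1 (-0.15, SE 0.13) were not called. No array had the custom probe of Cyp27b1 well above background. The degrading enzyme Cyp24a1 was -0.39 by the catalogue probe and 0.46 by the custom probe, so no direction can be given. The retinoic acid hydroxylases Cyp26b1 (-0.13, SE 0.31) and Cyp26a1 (-0.40, SE 0.35) were not called. Cyp20a1, whose substrate is unsettled, was 0.30 higher without overlap (SE 0.12, adjusted p = 0.176).

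The remaining 20 genes were not tested by their catalogue probes. Of these, 14 were well above background on none of the arrays and 6 on 1 or 2. The 14 were Cyp2a12, Cyp2b23, Cyp2c38, Cyp2c39, Cyp2c40, Cyp2c54, Cyp2g1, Cyp2j5, Cyp3a25, Cyp3a44, Cyp4a29, Cyp4a31, Cyp7a1 and Cyp11b2. For Cyp2g1, Cyp4a29 and Cyp4a31 the custom probe was well above background on all 6 arrays, with Cyp4a29 0.79 higher without overlap (SE 0.18, adjusted p = 0.06).

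The custom probes give a second reading of the same RNA on the same arrays, and so a technical check that is not independent of the first. They covered 69 of the 75 genes, 40 were tested, and 6 were called lower and 0 higher, where 6.49% of all tested custom probes of RefSeq mRNAs were called lower. Among the 6, that of Cyp4f14 passed the background filter through its Sham arrays alone. In 35 genes both probes were tested, and the difference had the same sign in 28 of them, with a median gap of 0.21. The gap was over 1 in 4 genes, Cyp1a1, Cyp2c70, Cyp2d9 and Cyp4f14. Of the pairs in the 69 genes, 14 shared a run of at least 15 bases and so overlap in sequence, among them Cyp2c44, Cyp2b9 and Cyp4a10.

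**Figure D3:**
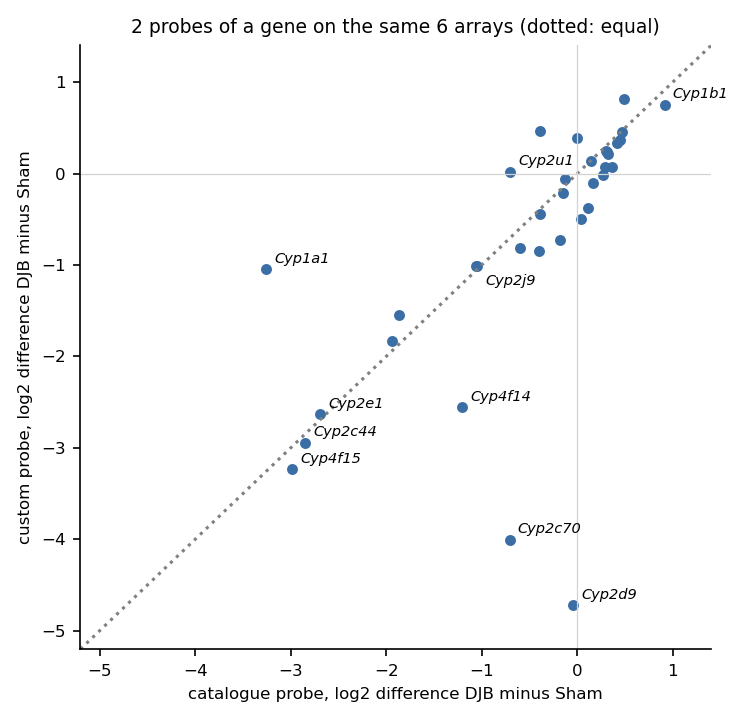
Log2 difference (DJB minus Sham) by the custom probe against that by the catalogue probe for the 35 P450 genes in which both were tested. Points on the dotted line have equal differences. Cyp2e1, Cyp2c44 and Cyp4f15 lie near it, and Cyp1a1, Cyp4f14, Cyp2c70 and Cyp2d9 lie over 1 from it.

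Cyp2d9, a male-specific liver enzyme, had the widest gap. By the catalogue probe it read 960, 871 and 836 on Sham and 617, 847 and 1212 on DJB arrays (-0.05, SE 0.25). By the custom probe it read 977, 404 and 6.37 on Sham and 1.26, 5.12 and 21.3 on DJB arrays (-4.72, SE 2.02, adjusted p = 0.189), that is, high on 2 of the 3 Sham arrays and low on the other 4. The catalogue probe lies in coding sequence on the plus strand of chromosome 15 (mm9), and it is shown because the custom probe gave another pattern:
Cyp2d9, chr15:82286832-82286891: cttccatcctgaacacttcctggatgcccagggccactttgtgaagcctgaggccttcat

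Several other genes were high on Sham-1 and Sham-2 but not on Sham-3. Cyp4f15, which acts on epoxides of fatty acids, read 154, 47.5 and 1.14 on Sham and 1.26, 1.41 and 9.4 on DJB arrays (-2.99, SE 1.86, adjusted p = 0.338). Cyp2d26 read 374, 196 and 52.1 against 57, 59.3 and 49.8 (-1.50, SE 0.68, adjusted p = 0.207). Cyp2f2, a lung and liver enzyme, read 646, 164 and 76.7 against 19, 120 and 73.4 (-1.87, SE 0.96, adjusted p = 0.258). Cyp2a5, which oxidises coumarin, read 26.5, 11.1 and 2.11 against 8.5, 1.43 and 5.81. In none of these did the groups separate, because Sham-3 lay within or below the DJB arrays, and Cyp2d26 was called lower without Sham-3 (-2.29). In 7 of the 55 tested P450 genes (12.7%) Sham-1 and Sham-2 were the 2 highest arrays, against 12.5% of all genes.

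Some markers of intestinal epithelium were high on the same arrays. The summed intensity of 7 intestinal epithelium markers was 1962, 1092 and 231 on Sham and 367, 504 and 519 on DJB arrays. Vil1 (1080, 582 and 49.7 against 17.8, 30.7 and 65.2) and Epcam (363, 235 and 2.19 against 1.22, 3.6 and 26.5) followed these arrays, whereas Cdx1, Cdx2 and Cdh17 were well above background on no array. Fabp2 (mean 96.7 in Sham and 139 in DJB, difference 0.58) and Krt20 (223 and 271, 0.44) were well above background on all arrays, with positive differences that were not called. Of 5 kidney tubule markers 2 were well above background on no array, and the sum was 235, 164 and 110 against 122, 112 and 87.4. Of 9 epididymis markers 4 were tested and 0 called, and the sum, 260, 228 and 105 against 117, 428 and 81.1, was highest on DJB-2. The part of such tissue in the P450 values was not tested.

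**Figure D4:**
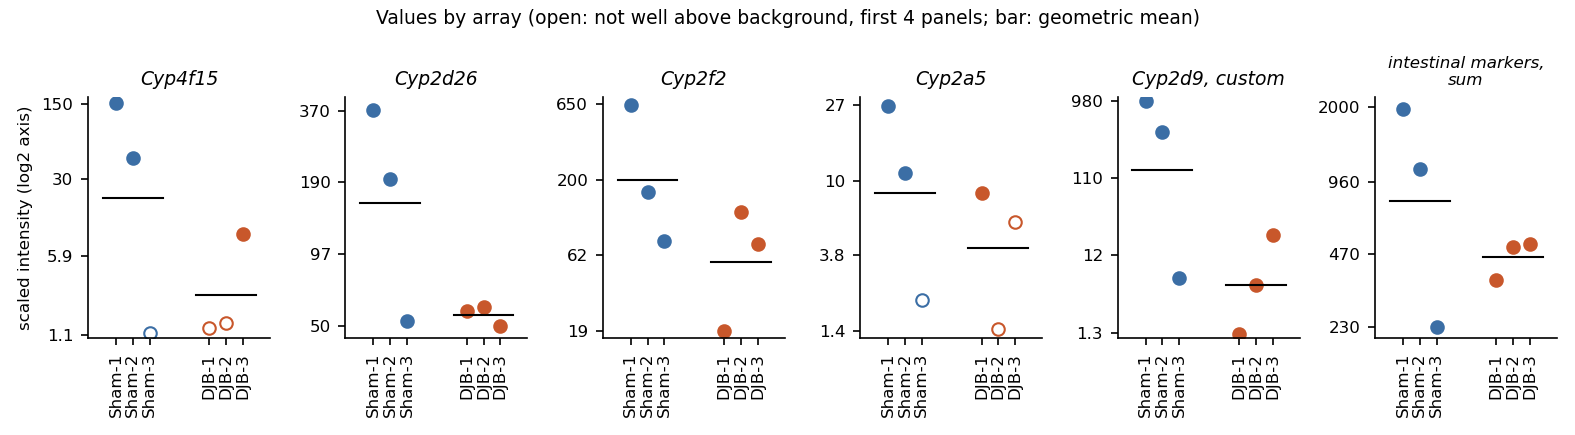
Scaled intensity (log2 axis, arbitrary units, each panel with its own scale) by array for Cyp4f15, Cyp2d26, Cyp2f2 and Cyp2a5, for the custom probe of Cyp2d9 and for the sum of 7 intestinal epithelium markers. Points are arrays, open points in the first 4 panels are not well above background, and bars are geometric means. Sham-1 and Sham-2 lie above Sham-3 in every panel.

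Since many P450 genes are best known from liver, 12 hepatocyte markers were read beside them. Of these 9 were tested and 2 called lower, beside 4.9% of all genes. The 2 were Hpx (-1.07, SE 0.13, adjusted p = 0.0225) and a probe of the near-identical Serpina1 genes (-2.50, SE 0.20, adjusted p = 0.00941). The summed intensity overlapped between the groups, 1656 to 1854 in Sham and 1239 to 3658 in DJB. Among the defining markers, Ttr and Cps1 were well above background on no array and Alb on 2 Sham arrays alone. Ahsg was well above background on all arrays, with a mean of 796 in Sham and 2084 in DJB (1.25, SE 0.52, adjusted p = 0.178), and Apoc3 was lower without overlap (-2.14, SE 0.61, adjusted p = 0.0903). Of the 6 Leydig cell and adrenal cortex markers on the array 4 were tested and 0 called, Lhcgr and Hsd3b6 were well above background on no array, and the sum was 814 to 858 in Sham and 469 to 724 in DJB. Of the others, 0 of 7 fibroblast markers and 1 of 6 endothelium markers (Kdr, -0.75, SE 0.11, adjusted p = 0.0309) were called.

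Around the P450 enzymes, 1 gene that serves their electron transfer and 5 that share their substrates as epoxide or drug enzymes were called lower. Over all pathway and marker lists 24 of 194 tested genes were called beside 7.02% of all genes, and 3 when the slide was a block, beside 1.07%. Por, the shared electron donor, read 19268, 17193 and 19342 on Sham and 21398, 20764 and 21895 on DJB arrays (0.20, SE 0.11, adjusted p = 0.27). Of 10 electron donors and partners, Cyb5b of the outer mitochondrial membrane was called lower (-0.85, SE 0.12, adjusted p = 0.0283). Of 13 genes of haem synthesis and breakdown 0 were called, 5 had an unadjusted p under 0.05 (35.5% of all genes did), and Alas1, the first step of haem synthesis, was 0.36 higher (SE 0.12, adjusted p = 0.115).

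Of 16 genes of arachidonic acid and its epoxides 2 were called, both lower, beside 4.9% of all genes, and the list's median was -0.45. These were Ephx3, an epoxide hydrolase, at 91.7, 99.1 and 93.9 on Sham and 30.5, 42 and 49.2 on DJB arrays (-1.25, SE 0.19, adjusted p = 0.032), and Ephx4, of the same family (-1.24, SE 0.21, adjusted p = 0.0368). Ephx2, the soluble epoxide hydrolase, was lower without overlap but not called (-1.01, SE 0.40, adjusted p = 0.162). The prostacyclin synthase Ptgis (-0.40, SE 0.34) and the thromboxane synthase Tbxas1 (0.75, SE 0.25, adjusted p = 0.122), themselves P450 proteins, were not called.

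Of 27 tested genes of conjugation and other drug metabolism 3 were called lower, beside 4.9% of all genes. None was called higher, and 22 differences were negative. Sult1e1, the oestrogen sulfotransferase, read 4196, 5322 and 4313 on Sham and 409, 1078 and 1282 on DJB arrays and fell by 2.47 (SE 0.43, adjusted p = 0.0392). The flavin monooxygenase Fmo1 (-1.02, SE 0.18, adjusted p = 0.0396) and the glutathione transferase Gstm2 (-0.90, SE 0.16, adjusted p = 0.0412) were the others. The carboxylesterase Ces1d (-1.43, SE 0.49, adjusted p = 0.129) was not called.

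Beside 4.9% of all genes, 3 of 15 retinoid genes tested were called lower. They were the retinol carrier Rbp4 (-2.80, SE 0.33, adjusted p = 0.0225), the retinaldehyde dehydrogenase Aldh1a1 (-1.32, SE 0.24, adjusted p = 0.0428) and the retinol dehydrogenase Rdh5 (-0.77, SE 0.11, adjusted p = 0.0309). Of 16 sterol and bile acid genes 2 were called higher, beside 2.12% of all genes, among them Sqle of cholesterol synthesis (1.28, SE 0.24, adjusted p = 0.0443). In the same list 1 was called lower, Nsdhl of the same pathway (-0.65, SE 0.10, adjusted p = 0.0315). Of 21 nuclear receptors and regulators 0 were called, with 4 at an unadjusted p under 0.05, and of 15 steroid hormone genes 0 were called, with 3, shares of 19% and 20% beside 35.5% of all genes. The receptors Nr1i3 (0.16, SE 0.25), which controls Cyp2b genes in liver, and Hnf4a (-0.17) overlapped between the groups.

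**Figure D5:**
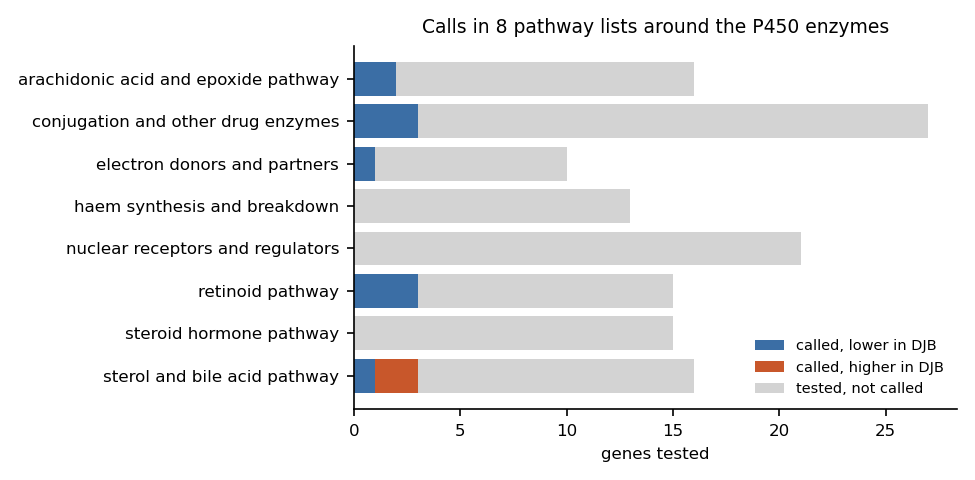
Number of genes tested in 8 pathway lists around the P450 enzymes, split into those called lower after DJB (blue), called higher (orange) and not called (grey). Blue segments are in 5 lists, orange in the sterol and bile acid list alone, and 3 lists have no calls.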

How the data were processed

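RNA from 3 Sham and 3 DJB samples was labelled with Cy3 and hybridised to 1-colour Agilent arrays. The authors deposited scanner files of Feature Extraction 12.0.3.1 with background-subtracted, detrended intensity per spot (build mm9), per the file headers. The deposited value table holds log2 intensities, for which the submitters' processing notes name limma without version or role. The deposited flags give whether a spot was well above background.

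Intensity was divided by each array's 75th percentile and taken to log2. Control spots and values with an outlier flag were left out. Probes well above background on at least 3 of 6 arrays were fitted with limma 3.58.1 (R 4.3.3) on group alone. Benjamini-Hochberg adjustment ran over all probes fitted. Genes were read from the RefSeq probe, of a coding or non-coding transcript, with the highest mean signal among those with a gene symbol, which leaves out custom probes. The fit was tested on simulated data. Where all arrays of one group were not well above background, a bound replaces the fold, computed against the higher of the probe's signal and the lowest signal well above background on each array.

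The P450 genes and all lists were chosen with earlier results of these data known. Named were all calls, the 8 lowest and 8 highest differences, the member with the highest mean signal in each family, members well above background on all 3 arrays of one group and at most 1 of the other, called list genes and up to 3 others per list; some list genes are not reported here. Further members were named for their role after their values were seen. Alternatives covered scaling, background correction, dim-probe filter, prior, slide, replicate number, probe choice and each array left out; those with custom probes were chosen after seeing the data. Sequences are from the files (probes) and RefSeq GRCm38.p6 (promoters).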

Additional observations from a re-analysis of the deposited data

How the results depend on the processing

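The number of P450 genes called (6) became 3 without a filter on dim probes, 10 with a trended robust prior, 3 with the slide as a block and 1 to 5 when 1 array was left out. It was 5 to 9 under the other alternatives run, apart from the replicate block. The 24 calls among 194 listed and marker genes became 48 with normexp, 4 without the filter, 41 with the trended prior, 3 with the slide block, 37 with the mean of probes and 2 to 24 with 1 array left out. Same-numbered arrays did not deviate together (r = -0.18, -0.12 and -0.29), while pairs with unlike numbers ranged from -0.15 to 0.25. Deviations of 3 arrays per group depend on each other, so these values cannot decide whether the numbers pair the samples. With the replicate block limma called 0 P450 genes (16 at an unadjusted p under 0.05) and 0 listed genes (75 unadjusted). The family 2 median was -0.71 with the mean of probes, and the family 4 median was 0.40 under median scaling and 0.18 to 0.33 with 1 array left out.

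For 30 named P450 genes, 441 of 508 comparisons kept direction and call, 42 kept direction but lost a call, 12 gained one and 13 reversed. The 13 include Cyp2u1 with the custom probe, which lost its call as well. Only the 6 called genes could lose a call, so all 42 of these losses and that of Cyp2u1 fell on them. The 441 include the uncalled genes that stayed uncalled, and so do not measure how stable the calls were. Taking the custom probe where it is the brighter one kept 4 of the 6 calls, without Cyp1a1 and Cyp2u1, and turned Cyp2u1 to 0.020, Cyp21a1 to -0.016 and Cyp24a1 to 0.46. Custom probes that are dimmer also had the other sign in Cyp39a1 (-0.49), Cyp46a1 (-0.38), Cyp2c65 (0.39) and Cyp2c66 (-0.098). Normexp turned Cyp19a1 to 0.14 and Cyp24a1 to 0.12. With 1 array left out, 6 genes crossed 0: Cyp11a1 ranged from -0.063 (without Sham-1) to 0.85, Cyp19a1 from -0.27 to 0.020 (DJB-3), Cyp26b1 from -0.44 to 0.070 (Sham-1), Cyp27b1 from -0.030 (Sham-2) to 0.43, Cyp39a1 from -0.094 (DJB-3) to 0.12 and Cyp46a1 from -0.021 (Sham-1) to 0.26. The causes were not tested. Signal over background limits Cyp1a1, Cyp2c29 and the 20 untested genes.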

Other observations

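Some P450 genes have symbols that the naming pattern leaves out. Cyp51, the lanosterol demethylase of cholesterol synthesis, read 135, 156 and 156 on Sham and 250, 252 and 217 on DJB arrays. It was higher on every DJB array and was called (0.69, SE 0.12, adjusted p = 0.0416, 0.071 with the slide as a block), beside the call of Sqle in the same pathway. Cyp4a12a, a fatty acid hydroxylase, overlapped between the groups (-0.04, SE 0.22, adjusted p = 0.914), and Cyp4a12b was not tested.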
